A study of Mus musculus with 5 samples.

Results

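The genes described here code for A20 and for proteins of the same pathway, most of which hold back the transcription factor NF-kB. They are Tnip1, Tnip2 and Tnip3, Tnfaip3, Nfkbia, Nfkbib, Nfkbie, Nfkbiz, Cyld and Birc3. All 10 were measured, among 19938 genes with a probe set of a single symbol, and each had 1 such probe set. They were chosen because Tnip3 was far higher and Tnfaip3 and Nfkbia lower in stimulated cells, so the contrast between the groups is given for them as a description, and nothing is supported with it. The cells were lung natural helper cells of C57Bl/6 mice, naive and 6 to 8 weeks old. They were sorted as lineage-negative cells with Sca-1, CD127 and CD25 on their surface and c-Kit absent or low. The unstimulated group has 3 arrays, of RNA taken right after the sort. The PMA and ionomycin group has 2 arrays, of cells held for 3 days in 200 microlitres of medium with PMA (60 ng/ml) and ionomycin (500 ng/ml). No array of cells cultured without the stimulus is among the samples, so time in culture and stimulus cannot be told apart. The labels do not give the sex of the mice, a point taken up with the markers below. Since no label names the mouse or culture behind a sample, errors and p-values cover only how far these samples lay apart, and that spread may be technical.

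NF-kB dimers wait in the cytosol bound to IkB proteins. When a receptor or protein kinase C activates the IKK complex, IkB alpha, beta and epsilon are phosphorylated, tagged with ubiquitin and destroyed, and the freed dimers enter the nucleus. The genes for several of these inhibitors are themselves switched on by NF-kB, which makes them a negative feedback loop. A20 and CYLD cut or edit the ubiquitin chains that carry the signal upstream of IKK. The Tnip genes code for the ABIN proteins, known as partners of A20, and what each protein does was not measured here. In lymphocytes PMA is a direct activator of protein kinase C and ionomycin lets calcium in.

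The promoters of 3 genes are shown first, because the largest differences of the set lie in them: Tnip3 in 1 direction, Tnfaip3 and Nfkbia in the other. Each line gives the 250 bases before the annotated start site, 5′ to 3′ on the gene's strand, from RefSeq on build GRCm38.p6. Capitals mark matches to the NF-kB consensus on either strand. It was searched as GGGRNNYYCC, where R is A or G, Y is C or T and N is any base. Tnip3 lies at chr6:65590148-65590397 (+ strand), Tnfaip3 at chr10:19015411-19015660 (- strand) and Nfkbia at chr12:55492648-55492897 (- strand).
Tnip3: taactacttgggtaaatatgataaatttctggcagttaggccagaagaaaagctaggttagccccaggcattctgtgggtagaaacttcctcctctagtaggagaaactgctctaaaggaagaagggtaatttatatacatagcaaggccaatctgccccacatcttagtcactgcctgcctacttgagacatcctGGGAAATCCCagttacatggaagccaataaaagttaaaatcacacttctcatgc
Tnfaip3: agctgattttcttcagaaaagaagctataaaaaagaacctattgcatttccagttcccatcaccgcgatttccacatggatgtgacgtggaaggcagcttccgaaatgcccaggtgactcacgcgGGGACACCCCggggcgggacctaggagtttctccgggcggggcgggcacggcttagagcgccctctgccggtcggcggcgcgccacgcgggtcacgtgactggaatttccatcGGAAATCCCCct
Nfkbia: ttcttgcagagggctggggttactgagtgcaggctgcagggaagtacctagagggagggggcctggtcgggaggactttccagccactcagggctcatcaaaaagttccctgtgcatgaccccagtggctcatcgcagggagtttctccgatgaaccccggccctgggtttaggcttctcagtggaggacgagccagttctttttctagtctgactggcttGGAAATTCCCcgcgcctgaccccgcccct

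Each of these 3 promoters held the consensus. Counted in bases from the start site, with bases before it negative, the match began at -54 in Tnip3, at -29 in Nfkbia, and at -125 and -12 in Tnfaip3. Windows of 300 bases, from 250 before to 50 after a start site, were listed for 9 of the 10 genes. Nfkbiz was not among them. Tnfaip3 had 2 windows, and the NF-kB consensus stood in that of the first start site and not in that of the second. In all, 6 of the 9 genes held at least 1 match: Tnip1, Tnip3, Tnfaip3, Nfkbia, Nfkbie and Cyld. Counted by window that was 6 of 10, beside 8.46% of all 32851 windows in the table. In Tnip1 the match was a run of 12 bases, GGGGAATTCCCC, in which 3 overlapping matches lie, from -58 to -47. The windows of Tnip2, Nfkbib and Birc3 held none. The AP-1 motif, searched as TGAGTCA and TGACTCA on both strands, was in 2 of the 9 genes and in 5.20% of all windows. The 2 were Nfkbie and Tnfaip3, the latter in the window of the first start site only. No AP-1 match overlapped an NF-kB match. Genes with a match included Tnip3, which was higher in stimulated cells, and 5 genes that were lower. A match is a string of letters in a window, and no binding was measured.

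**Figure D1:**
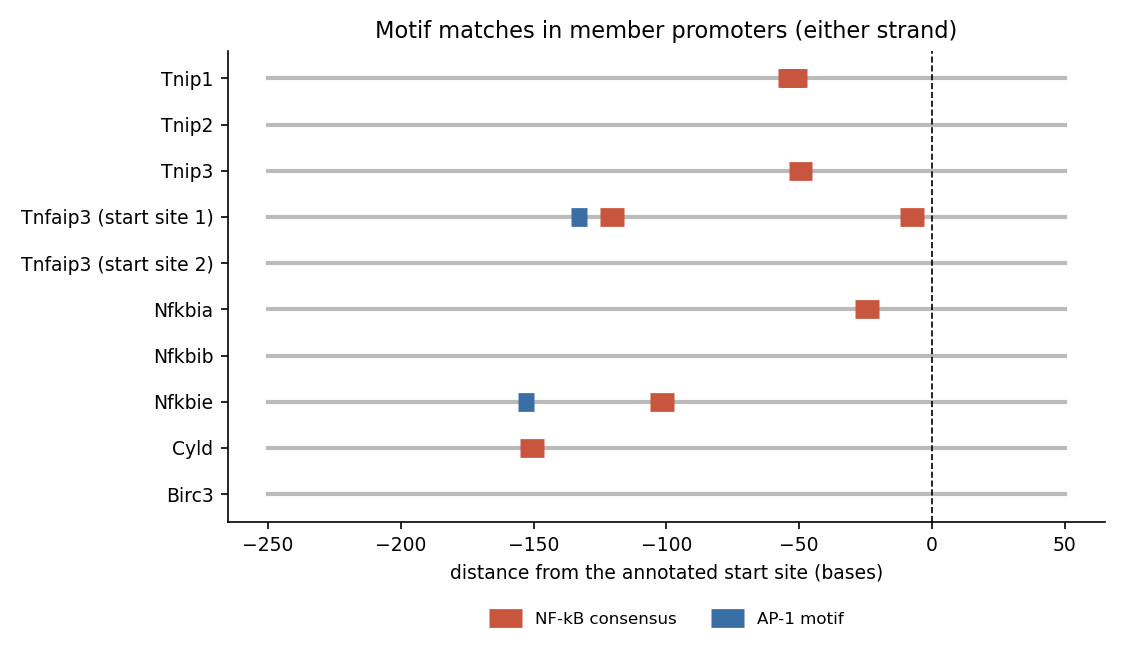
Motif matches in the promoter windows, by distance from the annotated start site in bases (x axis), with a row for each window of the 9 genes listed. Red blocks are matches to the NF-kB consensus and blue blocks to the AP-1 motif, and 6 of the 9 genes hold a red block.

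Among the genes for ABIN proteins, Tnip3 was higher in stimulated cells. On the RMA log2 scale Tnip3 read 5.17, 5.12 and 4.89 on unstimulated arrays 1, 2 and 3, and 10.3 on both stimulated arrays (10.35 and 10.29). The groups were separated by 5.11, against an SD of 0.15 in the unstimulated group and 0.05 in the stimulated group. The difference was 5.26 ± 0.10 (SE of the fit, n = 3 and 2 arrays), or 38.2-fold, and was the second largest among all 19938 genes. The unstimulated values lay between the lower quartile (4.46 to 4.50) and the median (5.63 to 5.66) of all probe sets on those arrays. There are no detection calls, so the unstimulated level may be background, and the fold may then understate the difference.

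Tnip1, which codes for ABIN-1, and Tnip2, which codes for ABIN-2, were lower. Tnip1 read 7.58, 7.49 and 7.64 on the unstimulated arrays and 6.89 and 6.94 on the stimulated ones, a difference of -0.65 ± 0.05. Tnip2 read 6.49, 6.56 and 6.43 against 6.24 and 6.15, a difference of -0.30 ± 0.05. In both genes every stimulated array lay under every unstimulated array, though in Tnip2 by a gap of 0.19. So within this family 1 member was higher by more than 5 log2 units and the other two were lower by less than 1.

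The transcript for A20 itself, the ubiquitin-editing enzyme coded by Tnfaip3, was lower in stimulated cells. Tnfaip3 read 10.94, 10.82 and 10.75 on the unstimulated arrays and 8.60 and 8.78 on the stimulated ones. The groups did not overlap, and the difference was -2.14 ± 0.09, or 4.42-fold lower. Cyld, which codes for a deubiquitinase that removes chains built upstream of IKK, read 9.38, 9.58 and 9.50 against 8.95 and 8.91. Its difference of -0.56 ± 0.07 was smaller, and its groups did not overlap either. Birc3, which codes for the ubiquitin ligase cIAP2, read 9.48, 9.53 and 9.56 against 8.83 and 8.91. That is a difference of -0.65 ± 0.04, with the narrowest unstimulated spread of the 10 genes (SD 0.04).

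Among the IkB genes 3 were lower, and the groups overlapped in the fourth. Nfkbia, which codes for IkB alpha, the inhibitor that is destroyed and remade fastest, read 10.16, 10.11 and 9.74 on the unstimulated arrays and 7.79 and 8.11 on the stimulated ones. The difference was -2.06 ± 0.19, or 4.16-fold lower. Nfkbie, which codes for IkB epsilon, read 7.34, 7.57 and 6.99 against 6.13 and 5.86, a difference of -1.30 ± 0.22. Both genes had groups that did not overlap, and unstimulated array 3 was the lowest of its group in both.

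The fourth, Nfkbib, codes for IkB beta. Its value was 7.92 on unstimulated arrays 1 and 2 and on stimulated array 1, 7.47 on unstimulated array 3 and 8.03 on stimulated array 2. The groups overlapped, and the difference was 0.21 ± 0.18. The 3 arrays at 7.92 shared 1 value to 5 decimals, as 3 or more arrays did in 42% of all genes, so the differences between them cannot be read. Nfkbiz, which codes for the nuclear protein IkB zeta, a cofactor of NF-kB at some promoters rather than a cytosolic anchor, read 10.26, 10.11 and 10.10 against 9.37 and 9.46. Its groups did not overlap, and the difference was -0.74 ± 0.07.

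**Figure D2:**
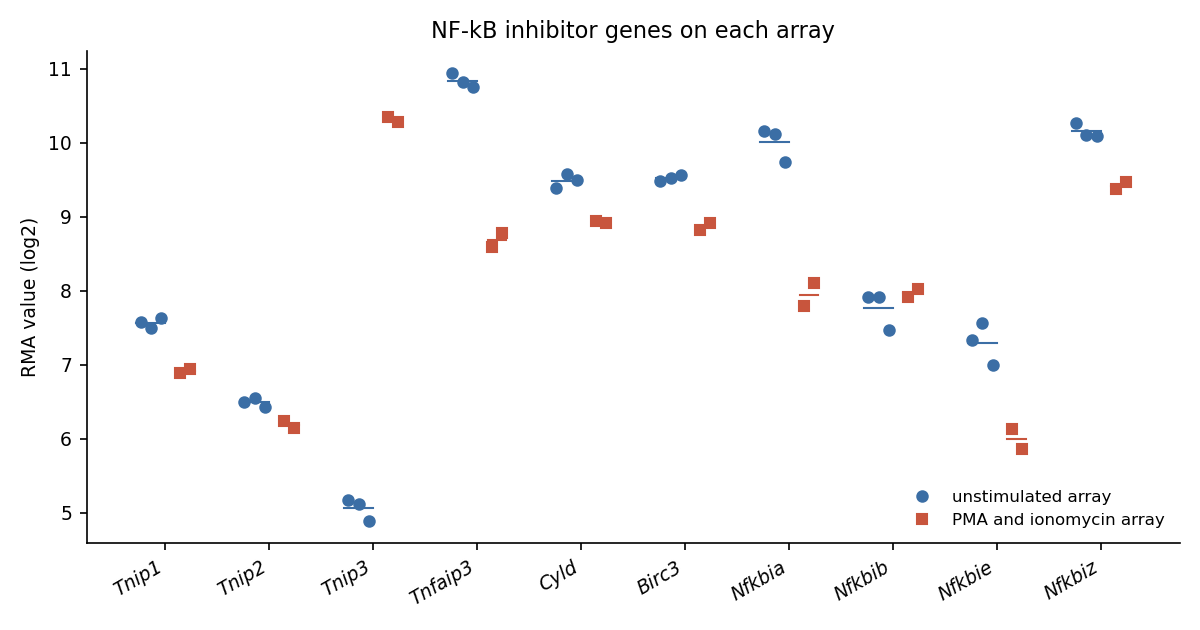
RMA values (log2, y axis) of the 10 genes on each array, with blue circles for the 3 unstimulated arrays, red squares for the 2 PMA and ionomycin arrays and short lines for group means. The squares lie above every circle in Tnip3, among the circles or higher in Nfkbib, and under every circle in the other 8 genes; values are comparable between arrays of a gene, not between genes.

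Taking the 10 genes as a set, 8 had a difference below 0, beside 43.6% of all genes, and 2 above. The median difference was -0.65, beside 0.00 over all genes. In 9 of the 10 the groups did not overlap (1 higher and 8 lower), as in 32.5% of all genes (18.6% higher and 14% lower). Limma called 6 of the 10 at a Benjamini-Hochberg adjusted p under 0.05, beside 1.7% of all genes. Tnip3 was the 1 called higher, beside 0.737% of all genes, and Tnfaip3, Nfkbia, Tnip1, Nfkbiz and Birc3 were the 5 called lower, beside 0.963%. The genes were chosen on this contrast, so nothing is read from these counts. Over all genes 43.4% of the calls were higher, and 55.6% after each array was centred on its median.

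Differences of the size seen in Tnfaip3 and Nfkbia were uncommon in the data as a whole. A difference of -2 or lower was found in 118 genes, or 0.592% of those tested. Tnip3 and 1 other gene had a difference of 5 or more. The 7 other genes of the set lay between the 1st and the 99th percentile of all genes (-1.63 and 1.30). The set was chosen for the differences of Tnip3, Tnfaip3 and Nfkbia, so their place among all genes is a description only.

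**Figure D3:**
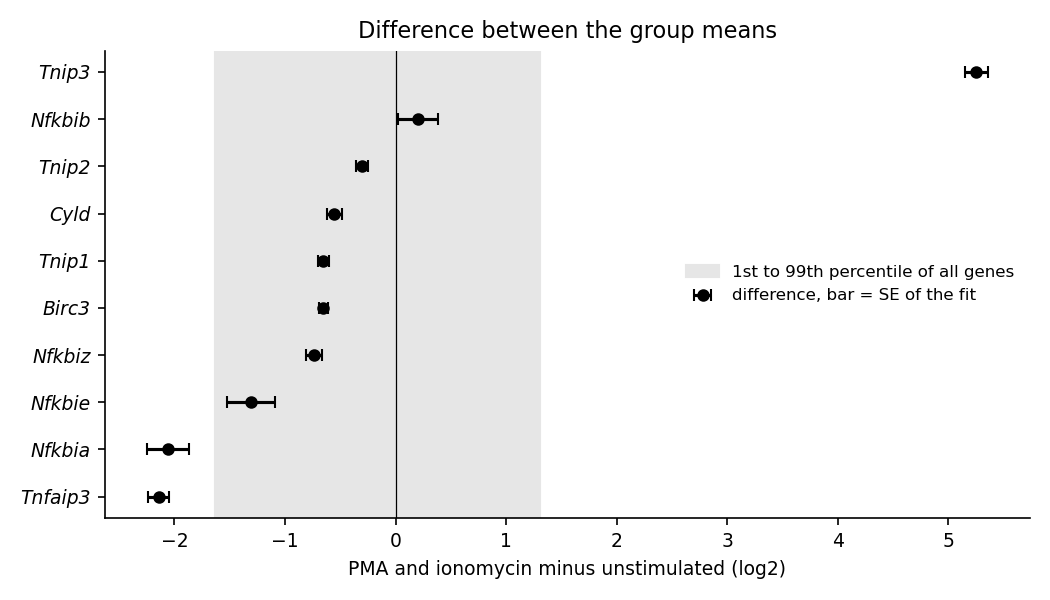
Difference between the group means (PMA and ionomycin minus unstimulated, log2, x axis) for each of the 10 genes, with bars for the SE of the fit and a grey band from the 1st to the 99th percentile of all 19938 genes. Tnip3 at 5.26 lies above the band, Tnfaip3 at -2.14 and Nfkbia at -2.06 lie under it, and the other 7 lie within it.

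The calls rested on few arrays, the sizes less so. Without unstimulated array 1 and without unstimulated array 2 limma called none of the 10, beside 7 and 0 of all 19938 genes. Without unstimulated array 3 it called Tnip3 alone, without stimulated array 1 Tnip3 and Tnfaip3, and without stimulated array 2 these and Birc3. Over all genes it called 88, 551 and 774 in these fits, in the same order, so calls were lost or gained far beyond the set. Over the same 5 fits the difference of Tnip3 ran from 5.17 to 5.31, that of Tnfaip3 from -2.24 to -2.05 and that of Nfkbia from -2.22 to -1.90. That of Nfkbib ran from 0.06 to 0.28, and its low end came from leaving out unstimulated array 3.

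The members also varied within the unstimulated group, which the choice of genes did not use. Unstimulated array 3 gave the lowest of the 3 values in 7 of the 10 genes, beside 23.1% of all genes. The 3 exceptions were Tnip1 and Birc3, in which array 3 was the highest, and Cyld. Early response genes, whose short-lived transcripts appear within minutes of a stimulus and during tissue dissociation, were lowest on that array in 15 of 22. Their median was 9.38, 9.29 and 9.04 on unstimulated arrays 1, 2 and 3 and 6.92 and 7.05 on the stimulated arrays. A tie did not count as lowest in any of these counts. In 42% of all genes 3 or more arrays shared 1 value, but among the 10 genes only in Nfkbib. The 23.1% may therefore understate the share for genes without ties, and 7 of 10 and 15 of 22 cannot be set squarely against it.

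Markers of natural helper cells and of other cells were followed beside these genes. Of 16 natural helper cell markers 13 were measured, and all 13 lay above the upper quartile of all probe sets in the unstimulated group, among them Il7r at 10.9, Il2ra at 10.7 and Gata3 at 10.7. Limma called 5 of them lower and none higher, beside 0.963% and 0.737% of all genes. The 5 were Il17rb (-3.23 ± 0.32 SE), Kit (-2.86 ± 0.13), Rora (-0.81 ± 0.07), Id2 (-0.78 ± 0.05) and Il7r (-0.77 ± 0.03). Of the 13 differences 8 were below 0 and 5 above. Those above were Il13 (2.41 ± 0.43), Il5 (0.71 ± 0.33), Icos (0.20 ± 0.11), Il2ra (0.19 ± 0.04) and Ptprc (0.03 ± 0.04). The median difference of the 13 was -0.77, and their summed linear level ran from 17228 to 19340 on unstimulated arrays and from 15882 to 16636 on stimulated arrays. For 9 other cell types 80 markers were measured and none was called, beside 1.7% of all genes. Of their differences 68 were below 0 and 12 above, where 43.6% of all genes were below 0. List medians ran from -0.57 for T cells to -0.10 for mast cells and basophils. Differences of single markers ran wider, from -3.25 ± 0.49 in Lyz2 to 0.54 ± 0.17 in Prf1. Of the 80, 43 lay under the median of all probe sets in the unstimulated group. Above the upper quartile lay 13, among them Cd3g at 10.3 and Scgb1a1 at 10.1. Those under the lower quartile were Ms4a1, Fcer2a, Klrb1c, Klra8, Ly6g, Epx, Mcpt4, Fcer1a and Ms4a2. The summed linear level of the list was lower on both stimulated arrays than on every unstimulated array for 8 of the 9 cell types. A few genes carried these sums: on the array where the sum was highest, Scgb1a1 made up 71.4% of that for epithelium, S100a9 50.9% of that for granulocytes and Cd3g 38.8% of that for T cells. For T cells, with 9 of 9 markers measured, it ran from 2569 to 3890 on unstimulated arrays and from 1657 to 2124 on stimulated arrays. For epithelium, with 10 of 10, it ran from 940 to 3236 and from 651 to 769, and for granulocytes, with 10 of 10, from 450 to 1408 and from 313 to 325. For endothelium and fibroblasts (10 of 10) it ran from 719 to 2097 and from 590.0 to 641, for macrophages and monocytes (13 of 14) from 712 to 1166 and from 486 to 589, and for dendritic cells (8 of 8) from 354 to 603 and from 291 to 319. For mast cells and basophils (7 of 7) it ran from 210 to 297 and from 129 to 133, for B cells (7 of 8) from 219 to 290.0 and from 212 to 218, and for NK cells (6 of 7), where the groups overlapped, from 205 to 346 and from 219 to 310. Xist, the RNA of the inactive X chromosome, stood at 9.65 ± 0.56 (SD, n = 3) and 4.13 ± 0.04 (SD, n = 2). Its difference, -5.52 ± 0.38 (SE), was the lowest of all 19938 genes. The labels give no sex, so a difference in sex cannot be told apart from the treatment.

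On unstimulated array 3 the summed level was the lowest of its group for 8 of those 9 cell types. The natural helper cell sum, 18418 and 19340 on unstimulated arrays 1 and 2, was also lowest on array 3, at 17228. Against that array alone the difference was 5.42 for Tnip3, -2.06 for Tnfaip3, -1.79 for Nfkbia, -0.997 for Nfkbie, -0.72 for Tnip1, -0.69 for Birc3, -0.68 for Nfkbiz, -0.57 for Cyld, -0.24 for Tnip2 and 0.51 for Nfkbib. These values rest on 1 unstimulated array and on the contrast by which the genes were chosen, and the sign was fixed in advance for the 9 genes whose groups did not overlap. The part of other cells in the differences was not tested. In bulk samples a smaller share of cells with a transcript and less of it per cell cannot be told apart.

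The genes nearest to Tnip3 and to Tnfaip3 were found by the root mean square distance over the 5 arrays, each gene centred on its own mean. Nearest to Tnip3 was Crabp2, a retinoic acid binding protein gene, at 0.41 log2 units. No other gene came within 0.5. The next were the isoprenoid enzyme gene Idi2 (0.78), the cytokine gene Il3 (0.84), the inhibitory receptor gene Havcr2 (0.86) and the chemokine gene Ccl3 (0.87). Crabp2 read 6.58, 6.26 and 5.21 on the unstimulated arrays and 11.7 on both stimulated arrays, so its unstimulated values were more spread than those of Tnip3.

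Tnfaip3 had many near neighbours, with 50 genes within 0.25 and 280 within 0.5. Nfkbia was the third nearest under the naming rule, at 0.119. Ahead of it were Txnip, which codes for a thioredoxin-binding protein, and the CD200 receptor family gene Cd200r4, both at 0.118. Rab27b, a gene of vesicle transport, and Cwc25, a splicing factor gene, followed at 0.119. These distances are a description over 5 arrays that fall into 2 groups, and genes with a like difference between the groups are near each other by that alone.

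**Figure D4:**
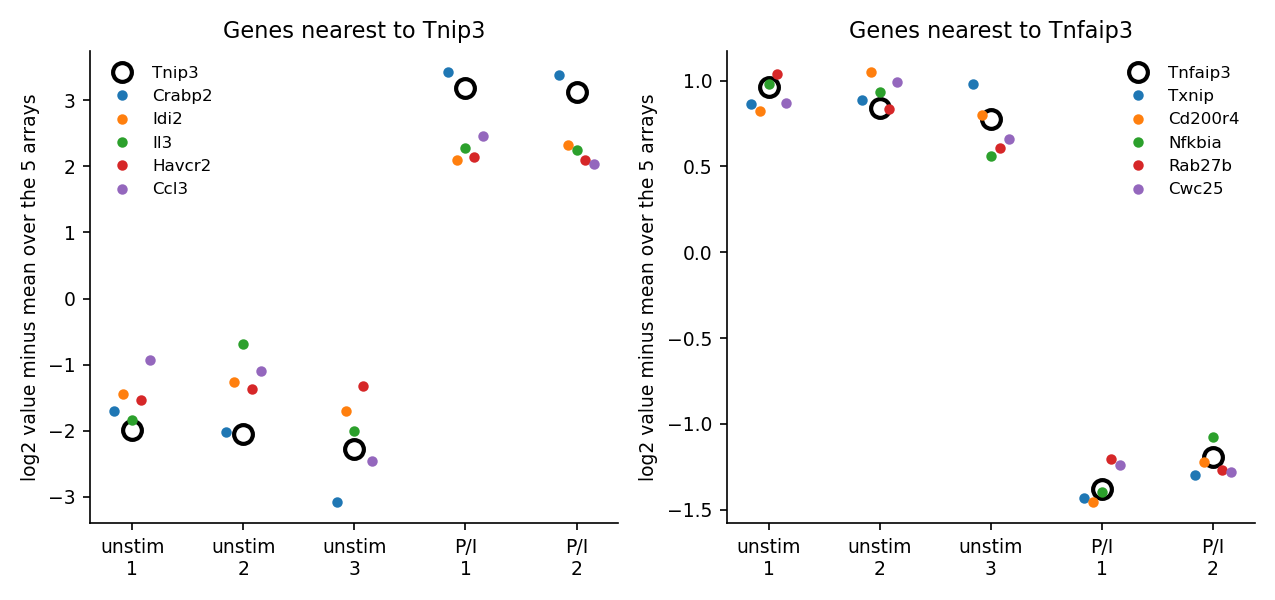
Values on each array minus the gene's mean over the 5 arrays (log2, y axis) for Tnip3 (left, black rings) and Tnfaip3 (right, black rings), with coloured points for the 5 nearest genes to each. The neighbours of Tnip3 lie 0.41 to 0.87 away and those of Tnfaip3 0.118 to 0.119 away, Nfkbia among them.

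Other genes of the pathway were taken from 7 lists. Of 5 genes for the DNA-binding subunits 4 were measured, and limma called none, beside 1.7% of all genes. Rel, which codes for c-Rel, the subunit most used by activated lymphocytes, read 11.2, 11.2 and 10.9 on the unstimulated arrays and 9.88 and 10.3 on the stimulated ones (-1.02 ± 0.19 SE, adjusted p = 0.0990). Relb, a subunit of the noncanonical branch, differed by -0.29 ± 0.09 (adjusted p = 0.227), Rela, which codes for p65, by 0.27 ± 0.10 (adjusted p = 0.283) and Nfkb2 by 0.09 ± 0.06 (adjusted p = 0.475). The list's median was -0.10.

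Nfkbid, which codes for IkB-NS, a nuclear relative of IkB zeta, read 7.89, 8.09 and 7.51 on the unstimulated arrays and 5.23 and 5.62 on the stimulated ones. Its difference of -2.41 ± 0.24 was wider than that of any of the 8 lower genes of the set, and narrowly missed the test (adjusted p = 0.0506). It was called after median centring or quantile normalization and with an intensity trend, but not with robust variances, with the replicate block or in any of the 5 fits that left out an array. Bcl3, which codes for another nuclear IkB-like protein, differed by -0.08 ± 0.06 (adjusted p = 0.476).

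None of the 9 measured genes for the IKK complex and the proteins that feed it was called, out of 12 listed, and their median was 0.02. They ran from -0.49 ± 0.13 for Ikbkb, which codes for the IKK beta kinase (adjusted p = 0.166), to 0.31 ± 0.12 for Map3k7, which codes for the kinase TAK1 above it (adjusted p = 0.283). The scaffold gene Ikbkg differed by 0.24 ± 0.08 (adjusted p = 0.238). On the route from protein kinase C to IKK 5 of 6 genes were measured and none was called. Malt1, which codes for the protease that cuts A20 in activated lymphocytes, read 9.14, 9.05 and 8.95 against 8.42 on both stimulated arrays (-0.63 ± 0.06, adjusted p = 0.0508). Prkcq, which codes for protein kinase C theta, differed by 0.10 ± 0.06 (adjusted p = 0.472).

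Another list held genes for partners of A20, ubiquitin ligases and deubiquitinases, and for some adaptors and kinases. Of its 15 measured genes 2 rose and none fell, beside 0.737% and 0.963% of all genes. Tank, which codes for an adaptor that restrains TRAF signalling, rose from 7.90, 8.00 and 7.95 to 8.84 and 8.92, a difference of 0.93 ± 0.04 (adjusted p = 0.0229). Otud7b, which codes for the deubiquitinase Cezanne, rose by 0.42 ± 0.04 (adjusted p = 0.0440). Genes for the partners that work with A20 differed by 0.16 ± 0.07 in Tax1bp1 (adjusted p = 0.338), 0.10 ± 0.10 in Itch (adjusted p = 0.640) and 0.03 ± 0.03 in Rnf11 (adjusted p = 0.591), and none passed the test. Those 3 names, with Birc2, were picked out after their values were seen. Birc2, which codes for cIAP1, the close relative of cIAP2, read 9.04, 8.81 and 8.67 against 7.80 and 7.54 (-1.17 ± 0.15, adjusted p = 0.0663). The list's median was 0.00.

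Textbook target genes of NF-kB came next. Of 20 measured, Tnfrsf9, which codes for the costimulatory receptor 4-1BB, rose by 2.88 ± 0.07 (adjusted p = 0.0166) and the chemokine gene Ccl4 rose by 1.10 ± 0.08 (adjusted p = 0.0363). None fell, beside 0.737% of all genes that rose and 0.963% that fell, and 13 differences were below 0 and 7 above, with a median of -0.11. The differences ran from -2.71 ± 0.31 in Gadd45b (adjusted p = 0.0582) to 3.74 ± 0.58 in Ccl3 (adjusted p = 0.0808). Those ends of the range did not pass the test.

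Of 22 measured early response genes, 10 fell and none rose, beside 0.963% and 0.737% of all genes, and 12 did not pass the test. In all, 20 differences were below 0 and 2 above, with a median of -1.92. The 2 above 0 were Egr2, a zinc finger factor gene that read 9.35, 9.18 and 8.68 against 10.3 on both stimulated arrays (1.24 ± 0.24, adjusted p = 0.104), and the phosphatase gene Dusp2 (0.18 ± 0.23, adjusted p = 0.660), both named after their values were seen. The largest falls were in the AP-1 genes Fosb (-4.80 ± 0.06, adjusted p = 0.0105), Fos (-2.95 ± 0.11, adjusted p = 0.0229) and Jun (-2.89 ± 0.21, adjusted p = 0.0358) and in the phosphatase gene Dusp1 (-3.36 ± 0.15, adjusted p = 0.0229). Their part in the differences of Tnfaip3 and Nfkbia was not tested. The calls of all these lists together, 4 higher and 10 lower of 77 measured genes, fell to 0 without unstimulated array 2, to 1 higher and 0 lower without unstimulated array 1 and to 1 and 2 without unstimulated array 3. Lower calls numbered 4 without stimulated array 1 and 6 without stimulated array 2. Over all genes, calls in either direction numbered 0, 7, 88, 551 and 774 in those fits, in the order named.

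**Figure D5:**
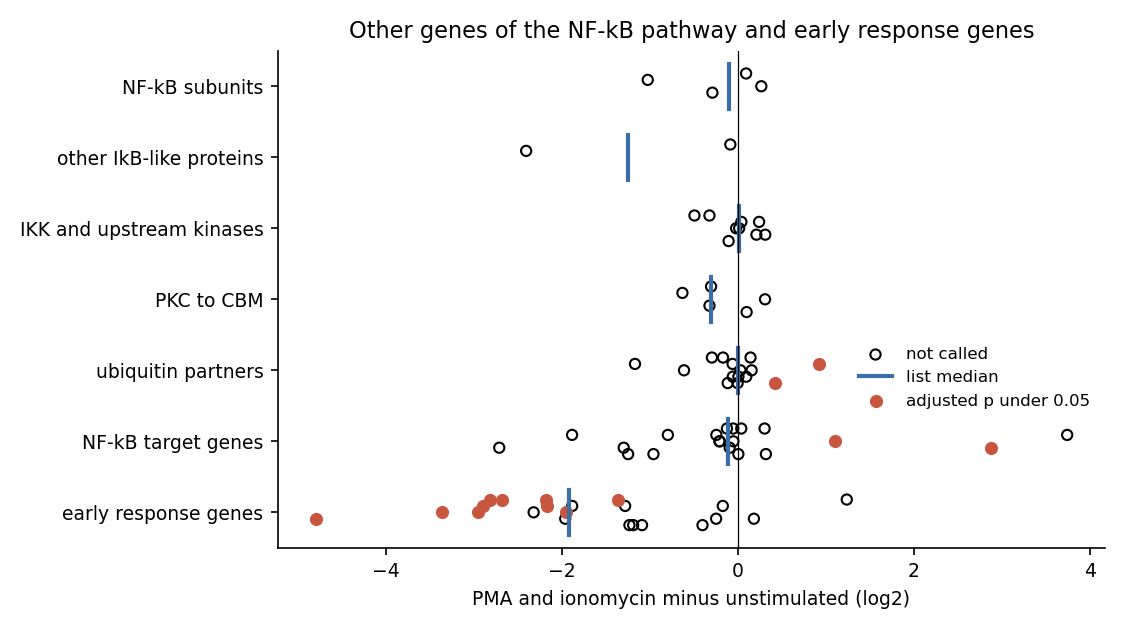
Difference between the group means (log2, x axis) of each measured gene of 7 lists, with filled red points for genes called by limma, open points for the others and a blue bar for the list's median. Red points lie above 0 for Tank, Otud7b, Tnfrsf9 and Ccl4, and the 10 red points below 0 are all early response genes.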

How the data were processed

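Per the submitters' processing notes, the authors made the deposited log2 values with RMA, whose version is not given in the sources used here. RMA forces array distributions alike, so a shift common to most genes would not be seen. Of 35556 probe sets on each of the 5 arrays, 21789 had 1 symbol in the platform annotation, 1621 several and 12146 none listed. Entrez numbers of 21698 matched the GRCm38.p6 gene table. For 999 genes with more than 1 probe set, the one with the highest mean was taken.

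The groups were fitted in limma 3.58.1 (R 4.3.3) by lmFit and eBayes with no filter, and p-values were Benjamini-Hochberg adjusted over 19938 genes (threshold 0.05). "Rose", "fell" and "called" refer to that test. On simulated data for this comparison (5 draws, 19938 genes) limma recovered 63.2% of changes of 1 log2 unit and 88.4% of changes of 2. The simulated noise was normal, few genes were changed and no arrays shared a value, so these rates may not hold for the real arrays. The genes, lists and tests were chosen with earlier results of these data known. All 10 genes of the set were named, and list genes if called (up to 4 a direction) or, in the subunit, IkB-like, IKK and protein kinase C lists, whatever their p. The ends of ranges were named after their values were seen. Nearest genes were sought without predicted or clone-named genes, small RNAs or receptor segments. Alternatives were other variance models, a filter on dim genes, the mean of probe sets, median centring, quantile normalization, a replicate block and leaving out each array. Plots used matplotlib 3.10.9 in Python 3.11.15.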

Additional observations from a re-analysis of the deposited data

How the results depend on the processing

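The sign of each of the 10 differences was the same in all alternatives in which the gene was tested, and for the 9 whose groups did not overlap this was fixed in advance when an array was left out. With leaving out each array, limma called 0 to 361 genes higher and 0 to 413 lower. Of the 10 genes of the set it called 0 to 1 and 0 to 2, and of the pathway list genes 0 to 5 and 0 to 6. Over all genes the 0 came without unstimulated array 2, where 3024 genes had an unadjusted p under 0.05. The full comparison gave 147 and 192, 1 and 5, and 4 and 10. A lone stimulated array was taken to vary like the others. Robust variances gave 45 higher and 66 lower over all genes, 2 genes of the set lower, and 2 and 3 list genes. Keeping only genes whose mean passed the median of all probe sets gave 824 and 716, with 8 genes of the set and 25 list genes lower. Median centring gave 660 and 526, with 19 list genes lower, and quantile normalization 825 and 729, with 23. Chosen after seeing the data, a fit without genes that share a value between arrays gave 1548 and 1161, with 28 list genes lower, and a fit with unstimulated array 3 as the only unstimulated one called 0 genes of any kind (3739 at an unadjusted p under 0.05).

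Replicate numbers 1 and 2 occur in both groups, and no label says that a number pairs samples. Deviations from the group means correlated at -0.145 for number 1 and -0.058 for number 2. With 2 stimulated arrays the deviations of 1 are the other's with the sign turned, so these are not separate checks. With the replicate number as a block, which leaves 1 residual degree of freedom, limma called 0 genes higher and 0 lower, in the set of 10, in the lists and over all genes (3568 at an unadjusted p under 0.05). The number of arrays limits the precision, and dim values, as of unstimulated Tnip3, could not be set apart from background.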
